A study of Mus musculus with 6 samples.

Results

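The 9 genes described here, Pdgfra, Cspg4, Olig1, Olig2, Sox10, Sox8, Nkx2-2, Ptprz1 and Lhfpl3, are markers of oligodendrocyte precursor cells. They were picked by name, as the annotated mouse gene rows with these symbols, out of 55359 annotated genes. All 9 were found in every library, each on 1 row, and all 9 reached a mean TPM (a transcript level scaled by length and library) of at least 1, so that they entered the test of 18893 genes.

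Oligodendrocyte precursors arise from ventricular zone progenitors, divide and spread through the brain before birth, and later give rise to the cells that make myelin. Olig2 and Olig1, paired basic helix-loop-helix factors, and the SoxE factors Sox8 and Sox10 set and hold the lineage, and Nkx2-2 takes part in the step to differentiation. On the surface, Pdgfra is the receptor for the growth factor PDGF-A, Cspg4 is the NG2 proteoglycan and Ptprz1 is a receptor tyrosine phosphatase that binds pleiotrophin. Several of these genes are also used outside the lineage, among them Pdgfra in meningeal fibroblasts, Cspg4 in pericytes, Sox10 in Schwann cells and Ptprz1 in radial glia and astrocytes.

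The samples were brains of mouse embryos at E18.5 carrying the PME-1 S156A knock-in (3 libraries), compared with brains of wild-type (WT) embryos of the same age (3 libraries). PME-1 is the methylesterase of protein phosphatase 2A and is encoded by Ppme1, and in the S156A form the catalytic serine is replaced. Each library was made from 3 brains pooled before extraction, so differences between single embryos cannot be seen and p-values measure the spread between these pools. The sources used here do not give strain, zygosity, litter or sex. Depth was estimated at 3.87, 3.24 and 4.14 aligned gigabases in S156A replicates 1 to 3 and at 3.15, 3.31 and 3.37 in WT replicates 1 to 3.

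Skeletal muscle RNA was uneven: Acta1, the actin of skeletal muscle, stood at 2611, 17.7 and 18.7 TPM in S156A replicates 1 to 3, against 8.22, 333 and 2472 TPM in WT replicates 1 to 3. S156A replicate 1 and WT replicate 3 are therefore called the muscle-rich libraries below. Ppme1 itself stood at 81.4 ± 8.37 TPM in S156A and 87.1 ± 11.5 TPM in WT (SD, n = 3 each), and a point mutation need not alter this level. All 9 markers of the lineage were above 6 TPM in every library. Of the myelin genes, Opalin was listed at 0 in all 6 libraries and Mobp stayed at or under 0.143 TPM. Others were present, with Mog between 7.69 and 14.2 TPM and Mag between 1.05 and 8.09 TPM.

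In S156A brains the 3 transcription factor genes Sox10, Sox8 and Nkx2-2 had values above those of all WT libraries, Lhfpl3 had values below them, and the other 5 genes overlapped between genotypes. Of the 9 genes 0 were called by limma at an adjusted p under 0.05, against 0.159% of all tested genes (30 of 18893). By direction these were 0.0847% higher and 0.0741% lower, or 16 and 14 genes, against 15 and 30 after scaling by trimmed means. At an unadjusted p under 0.05 there were 2 of 9, Sox10 and Sox8, against 13.9% of all tested genes, 8.41% with positive and 5.5% with negative values. The groups did not overlap for 4 of 9, against 20.8% of all tested genes. They did not overlap with S156A higher for 3 of 9, against 13.7% of all tested genes. The median log2 difference of the 9 genes (S156A minus WT) was -0.11, beside 0.09 for all tested genes, with 4 positive and 5 negative values, and 61.7% of all tested genes were positive. On the assembled loci described below, 3 of 9 had an unadjusted p under 0.05 (13.7% of all tested genes) and 4 of 9 did not overlap (21.2%). On coverage these were 4 of 9 (16.6%) and 3 of 9 (23.6%), with Sox10 overlapping. Because these are bulk samples, fewer cells of a type and less RNA per cell cannot be told apart.

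**Figure D1:**
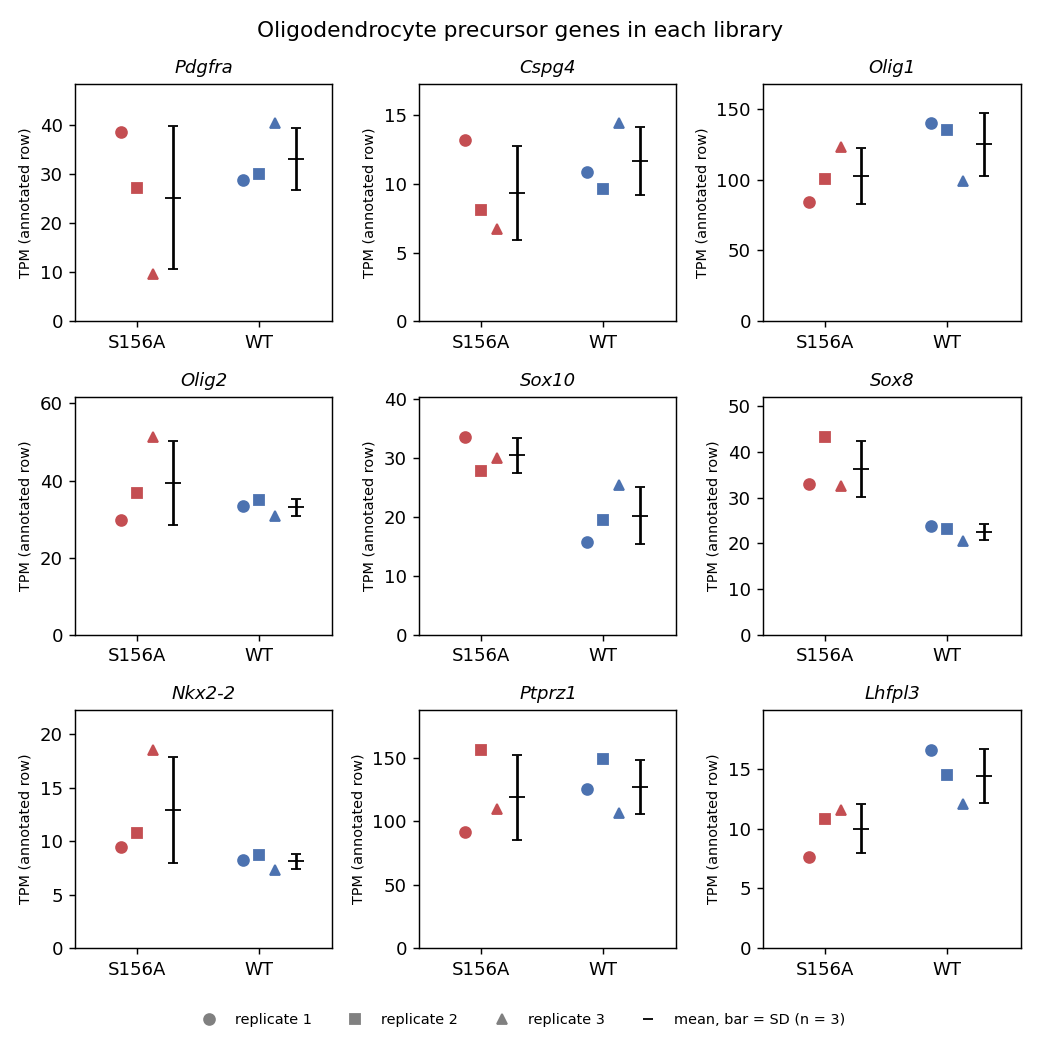
TPM of the annotated row of each of the 9 genes in the 3 S156A and 3 WT libraries, with the mean and SD (n = 3) beside each group. Sox10, Sox8 and Nkx2-2 lie above all WT libraries in S156A, Lhfpl3 lies below them, and Pdgfra has 1 low S156A library at 9.73 TPM.

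By level, Ptprz1 and Olig1 led in every library, with means over the 6 libraries of 123 and 114 TPM, and each held the first place in some libraries. Olig2, Sox8, Pdgfra and Sox10 followed at means of 36.2, 29.4, 29.1 and 25.4 TPM, with overlapping ranges, and their order changed between libraries. Lhfpl3, Nkx2-2 and Cspg4 were lowest, at 12.2, 10.5 and 10.5 TPM, and did not differ beyond their spread.

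The promoters of Sox8, Nkx2-2 and Lhfpl3 are shown because their values did not overlap between genotypes and a sequence was at hand. Promoter sequences for 7 of the 9 genes, all but Sox10 and Olig1, were matched in RefSeq (GRCm38.p6, whose coordinates differ from those given below for the genes). Each runs from 250 bases before to 50 bases after the RefSeq start, on the gene's strand. The Nkx2-2 window lies inside that gene's annotated span of 16698 bases, downstream of the 5' end of the span.
Sox8, chr17:25570637-25570936, minus strand: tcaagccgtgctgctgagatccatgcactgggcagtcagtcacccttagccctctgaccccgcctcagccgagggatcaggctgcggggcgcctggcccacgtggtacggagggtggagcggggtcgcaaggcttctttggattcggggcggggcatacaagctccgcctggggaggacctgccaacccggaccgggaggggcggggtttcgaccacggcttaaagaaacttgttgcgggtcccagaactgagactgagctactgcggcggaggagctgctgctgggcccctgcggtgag
Nkx2-2, chr2:147186353-147186652, minus strand: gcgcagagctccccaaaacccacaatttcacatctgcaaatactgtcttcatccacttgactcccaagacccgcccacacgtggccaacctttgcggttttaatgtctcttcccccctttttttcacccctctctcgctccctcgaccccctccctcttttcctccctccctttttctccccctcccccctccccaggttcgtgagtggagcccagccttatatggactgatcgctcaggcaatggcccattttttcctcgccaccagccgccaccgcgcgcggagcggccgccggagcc
Lhfpl3, chr5:22745804-22746103, plus strand: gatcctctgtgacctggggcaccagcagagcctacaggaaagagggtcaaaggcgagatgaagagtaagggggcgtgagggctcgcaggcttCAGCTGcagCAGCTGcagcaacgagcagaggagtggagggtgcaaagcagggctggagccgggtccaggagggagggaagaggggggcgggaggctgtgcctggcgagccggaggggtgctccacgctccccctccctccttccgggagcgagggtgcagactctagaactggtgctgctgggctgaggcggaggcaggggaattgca
Capitals mark the E-box CAGCTG, its own reverse complement, of the kind read by basic helix-loop-helix factors such as Olig2. Lhfpl3 holds 2 copies and the other 6 promoters hold 0, while 16.3% of 32851 promoters of this length hold at least 1. The SOX core AACAAT, searched on both strands as AACAAT and ATTGTT, occurs once, in the Olig2 promoter, and in 10.7% of all promoters. No promoter of the 7 held both motifs. GC content was 66.3% in the Sox8 window, 59.7% in that of Nkx2-2 and 66.0% in that of Lhfpl3, beside a median of 52.7% over all promoters. These matches are letters in a window and show no binding.

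Sox10 (ENSMUSG00000033006.11, chromosome 15, 79039108 to 79049440, minus strand, in the files' coordinates) encodes the SoxE factor that drives myelin genes. It stood at 33.7, 27.8 and 29.97 TPM in S156A replicates 1 to 3, against 15.8, 19.5 and 25.4 TPM in WT replicates 1 to 3. The S156A values were close together and all above WT, whose own highest value was in muscle-rich replicate 3. The means were 30.5 ± 2.96 TPM in S156A and 20.2 ± 4.81 TPM in WT (SD, n = 3 each), a ratio of 1.51. As log2(TPM + 1), a scale on which low genes show too small a change, the difference was 0.59 (SE 0.19) and did not pass over all genes (limma adjusted p = 0.26; unadjusted p = 0.016). On coverage per aligned gigabase the groups overlapped, at 7.45 to 9.90 in S156A and 4.67 to 7.64 in WT.

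Sox8 (ENSMUSG00000024176.11, chromosome 17, 25784866 to 25789660, minus strand), a SoxE relative that works beside Sox10 in the lineage, stood at 32.9, 43.4 and 32.5 TPM in S156A replicates 1 to 3. In WT replicates 1 to 3 it stood at 23.9, 23.2 and 20.6 TPM. All S156A libraries were above all WT libraries, and WT was narrow. The means were 36.3 ± 6.16 TPM in S156A and 22.5 ± 1.75 TPM in WT (SD, n = 3 each), a ratio of 1.61. The log2 difference of 0.65 (SE 0.15) was the largest of the 9 genes in size and did not pass over all genes (limma adjusted p = 0.16; unadjusted p = 0.0034). Measured as read coverage per aligned gigabase, it came closest to the threshold, with a log2 difference of 0.58 at an SE of 0.08 (limma adjusted p = 0.059). The start of Sox8 overlaps Cerox1 on the opposite strand, listed at 5.51 to 10.9 TPM. The library kit keeps strand, but the sources used here do not say how strand was set in counting, so reads of overlapping genes may be shared.

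Nkx2-2 (ENSMUSG00000027434.12, chromosome 2, 147019466 to 147036163, minus strand) stood at 9.42, 10.7 and 18.6 TPM in S156A replicates 1 to 3, against 8.26, 8.74 and 7.34 TPM in WT replicates 1 to 3. The groups did not overlap, but S156A replicates 1 and 2 were only just above WT and replicate 3 was far above. The log2 difference was 0.56 (SE 0.26; limma adjusted p = 0.40), and 0.28 (SE 0.21) without S156A replicate 3. Nkx2-2 overlaps 6430503K07Rik and Nkx2-2os on the opposite strand, the first of which ran between 0.066 and 3.31 TPM.

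Olig2 (ENSMUSG00000039830.10, 91022345 to 91025565) and Olig1 (ENSMUSG00000046160.7, 91066660 to 91068821) lie on the plus strand of chromosome 16 with 41094 bases between them. Olig2, the first lineage factor, stood at 29.9, 36.8 and 51.4 TPM in S156A replicates 1 to 3, against 33.5, 34.9 and 30.7 TPM in WT replicates 1 to 3. Its groups overlapped, with S156A replicate 3 alone far above WT, and the log2 difference of 0.21 (SE 0.20; limma adjusted p = 0.67) was 0.01 without that library. Olig1, the partner with a later role in maturation, stood at 83.9, 100.4 and 123 TPM in S156A replicates 1 to 3, against 140, 135 and 99.2 TPM in WT replicates 1 to 3. The groups overlapped, and the log2 difference was -0.28 (SE 0.19; limma adjusted p = 0.54). It was -0.15 without S156A replicate 1 and -0.44 without WT replicate 3 (limma adjusted p = 0.29).

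The 2 neighbours thus differed in sign, and their ratio within a library did not overlap between genotypes. The log2 ratio of Olig1 to Olig2, taken here and below on TPM + 1 of each gene, was 1.46, 1.42 and 1.24 in S156A replicates 1 to 3, and 2.03, 1.92 and 1.66 in WT replicates 1 to 3. All S156A values were below all WT values. The means were 1.38 ± 0.12 in S156A and 1.87 ± 0.19 in WT (SD, n = 3 each), a difference of -0.50 (exact permutation test, two-sided, p = 0.1, also 0.1 after adjustment over the 3 ratios tested). That is the smallest p that 3 against 3 libraries can give, so this design cannot pass 0.05 by that test. The difference of -0.50 combines those of Olig1 (-0.28) and Olig2 (0.21) and is not a separate finding. How often ratios of other gene pairs do not overlap was not counted.

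Pdgfra (ENSMUSG00000029231.16, chromosome 5, 75312953 to 75358876, plus strand) stood at 38.6, 27.0 and 9.73 TPM in S156A replicates 1 to 3, against 28.8, 29.9 and 40.3 TPM in WT replicates 1 to 3. S156A replicate 3 was far below all other libraries, and the other 5 overlapped. The means were 25.1 ± 14.5 TPM in S156A and 33.01 ± 6.30 TPM in WT (SD, n = 3 each), with a log2 difference of -0.56 at an SE of 0.45 (limma adjusted p = 0.62). Without S156A replicate 3 the difference was -0.01 (SE 0.23).

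This low value came with a lower ratio of the annotated row to the assembled row over the same locus. The deposited tables also list assembled loci, and the locus over Pdgfra stood at 42.3, 29.96 and 25.5 TPM in S156A replicates 1 to 3, against 28.6, 29.9 and 40.3 TPM in WT replicates 1 to 3. The TPM of the annotated row was 91.2%, 90.2% and 38.2% of that of the locus in S156A replicates 1 to 3, and between 99.98% and 100.8% in WT. Annotated and assembled rows repeat reads, so these percentages compare separate estimates and are not shares of reads. In S156A replicate 3 the assembled locus began 2784 bases downstream of the annotated start. The ratio of coverage to FPKM, divided by the library's depth, is close to 1 for Olig1 and Olig2, which have 1 annotated transcript each. For Pdgfra it was 0.408, 0.402 and 0.997 in S156A and 0.375, 0.365 and 0.375 in WT. Among the other 8 genes the widest range was that of Nkx2-2, from 0.805 to 0.976.

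Measured on the assembled locus, Pdgfra averaged 32.6 ± 8.69 TPM in S156A and 32.9 ± 6.38 TPM in WT (SD, n = 3 each), with a log2 difference of -0.03 at an SE of 0.22 (limma adjusted p = 0.97). As coverage of the annotated row per aligned gigabase it was 5.34, 3.28 and 3.38 in S156A and 3.59, 3.58 and 5.17 in WT, with a log2 difference of -0.04 at an SE of 0.20 (limma adjusted p = 0.95). On both measures the groups overlapped, and S156A replicate 3 lay close to replicate 2. Coverage of the assembled locus per aligned gigabase was 5.33, 3.17 and 8.21 in S156A replicates 1 to 3. In WT replicates 1 to 3 it was 8.16, 3.57 and 5.29. On that measure S156A replicate 3 lay far above replicate 2. GENCODE M21 lists 9 transcripts of Pdgfra, between 442 and 6834 bases long, more than for any other of the 9 genes. The assembled locus and coverage measures were chosen after the data were seen.

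**Figure D2:**
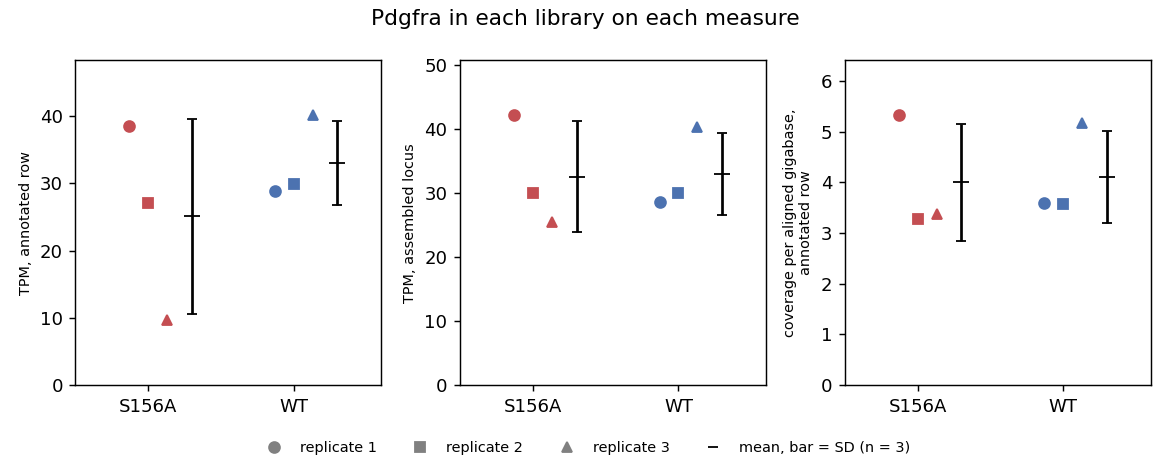
Pdgfra in each library as TPM of the annotated row, TPM of the assembled locus, and coverage of the annotated row per aligned gigabase, with mean and SD (n = 3). The triangle of S156A replicate 3 is at 9.73 TPM in the annotated row but at 25.5 TPM in the assembled locus and level with replicate 2 in coverage.

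Cspg4 (ENSMUSG00000032911.7, chromosome 9, 56772317 to 56807154, plus strand) stood at 13.2, 8.10 and 6.70 TPM in S156A replicates 1 to 3, against 10.9, 9.63 and 14.4 TPM in WT replicates 1 to 3. The muscle-rich library was the highest in each genotype, and the groups overlapped. The log2 difference was -0.32 (SE 0.27; limma adjusted p = 0.64), and the annotated row and the assembled locus had the same TPM in every library.

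Ptprz1 (ENSMUSG00000068748.8, chromosome 6, 22875501 to 23052915, plus strand) stood at 91.5, 156.5 and 109.6 TPM in S156A replicates 1 to 3, against 125, 149 and 106 TPM in WT replicates 1 to 3. The groups overlapped widely, with the lowest and the highest library both in S156A. The log2 difference was -0.11 (SE 0.22; limma adjusted p = 0.86).

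Lhfpl3 (ENSMUSG00000106379.2, chromosome 5, 22951057 to 23480595, plus strand), a tetraspan membrane protein gene, stood at 7.65, 10.8 and 11.5 TPM in S156A replicates 1 to 3. In WT replicates 1 to 3 it stood at 16.6, 14.5 and 12.1 TPM. All S156A libraries were below all WT libraries, by a small margin between S156A replicate 3 and WT replicate 3. The means were 10.002 ± 2.07 TPM in S156A and 14.4 ± 2.25 TPM in WT (SD, n = 3 each), with a log2 difference of -0.49 at an SE of 0.21 (limma adjusted p = 0.36; unadjusted p = 0.051). On the assembled locus the log2 difference was -0.50 (SE 0.18; limma adjusted p = 0.32). The TPM of the annotated row was between 56.9% and 66.3% of that of the locus.

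**Figure D3:**
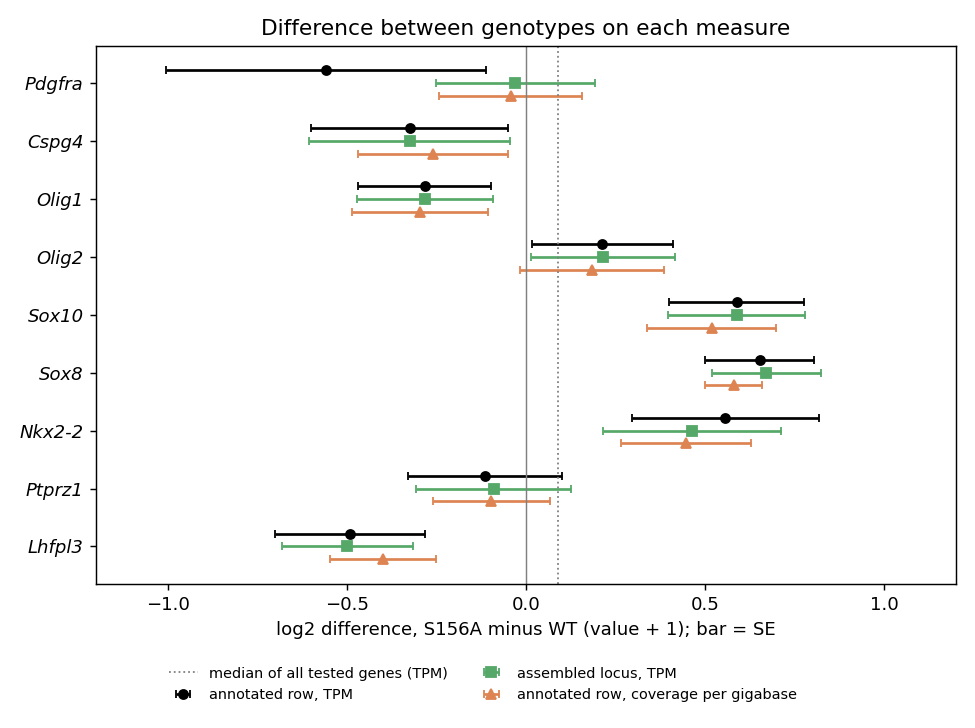
Log2 difference, S156A minus WT, of each of the 9 genes with its SE (limma, 3 against 3 libraries), as TPM of the annotated row, TPM of the assembled locus and coverage per gigabase. The 3 measures lie close together for every gene except Pdgfra, at -0.56, -0.03 and -0.04.

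The 9 genes also differed in how they varied with the muscle-rich libraries. Within each genotype Pdgfra, Cspg4 and Sox10 were highest in the muscle-rich library, and Olig1, Olig2, Nkx2-2, Ptprz1 and Lhfpl3 were lowest there. Such shifts are not particular to the 9 genes. Over all tested genes, deviations from the genotype mean correlated at 0.648 between the 2 muscle-rich libraries. The share of all tested genes highest or lowest in both was not counted. On assembled loci Nkx2-2 left the second group. Between the 2 muscle-rich libraries the log2 difference was 0.40 for Sox10 and 0.65 for Sox8, and between the other 2 S156A and 2 WT libraries it was 0.69 and 0.65. For Lhfpl3 these values were -0.60 and -0.44, for Nkx2-2 0.32 and 0.68, and for Cspg4 -0.12 and -0.43. Olig2 had values of -0.04 and 0.34, with different signs. The first value of each pair compares 1 library with 1 and has no replicate check. The second is not balanced for muscle RNA. The 8 skeletal muscle markers summed to 15.4 and 871 TPM in WT replicates 1 and 2, and to 57.1 and 48.0 TPM in S156A replicates 2 and 3.

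Markers of other cells that use these genes differed between the same libraries. Of the 8 skeletal muscle markers 0 were called and 0 had an unadjusted p under 0.05, with the smallest p for Actn3 (-0.60), Acta1 (-0.99) and Ckm (-0.85). Their median log2 difference was -0.58 with all libraries, but 0.62 without S156A replicate 2, 0.59 without S156A replicate 3 and 1.30 without WT replicate 3, and it was -2.81 without S156A replicate 1 and -2.70 without WT replicate 1. The sum of 8 Schwann and neural crest markers was 46.2 TPM in muscle-rich S156A replicate 1, and the other S156A libraries had 16.3 and 18.3 TPM. In WT it was 59.8 TPM in muscle-rich replicate 3 and 22.4 and 22.6 TPM in the others. Of that list Cdh19 was listed at 0 in WT replicate 1 and stayed at or under 0.461 TPM elsewhere, and none of its 5 tested genes, Foxd3 (-0.62), Ngfr (-0.34) and Prx (-0.34) having the smallest p, was called or had an unadjusted p under 0.05. The sum of 8 meningeal fibroblast markers, led by Col1a1, ran between 416 and 2623 TPM in S156A and between 189 and 2127 TPM in WT, highest in the muscle-rich library of each. Foxc1, Aldh1a2 and Crabp2 had the smallest p of that list, with log2 differences of 0.45, 0.28 and 0.20, and none of its 8 genes had an unadjusted p under 0.05. The part of these cells in the levels of Sox10, Pdgfra and Cspg4 was not tested.

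**Figure D4:**
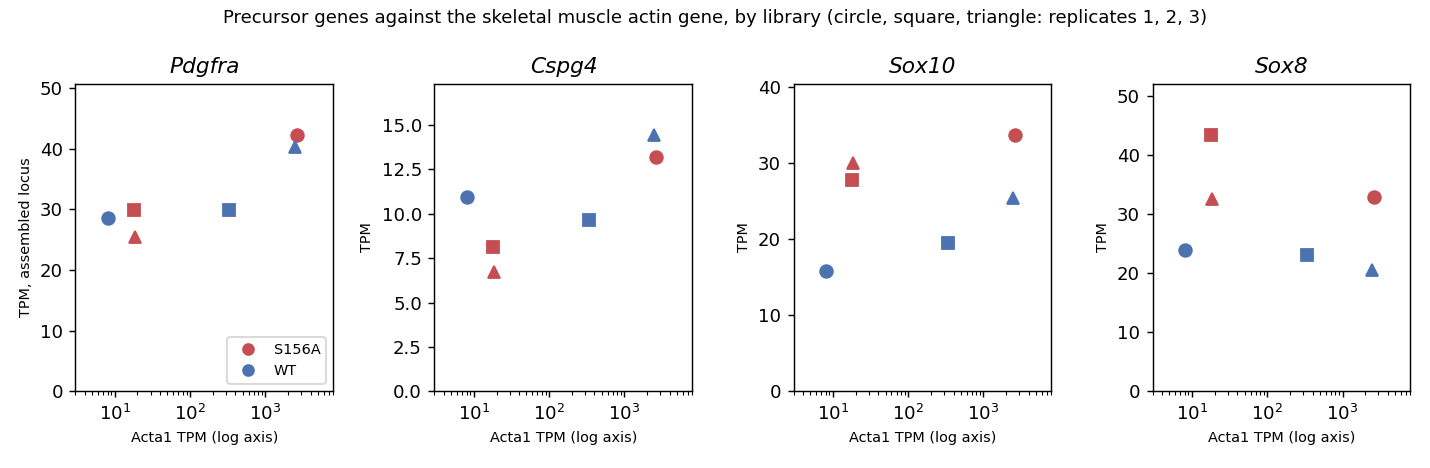
TPM of Pdgfra (assembled locus), Cspg4, Sox10 and Sox8 in each library against the TPM of Acta1 on a log axis. Pdgfra, Cspg4 and Sox10 are highest in the muscle-rich library of each genotype, and Sox10 and Sox8 are higher in S156A replicate 1 than in WT replicate 3, the 1 library of each genotype at high Acta1.

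Markers of pericytes, which also use Cspg4, summed to between 248 and 287 TPM in S156A and between 181 and 224 TPM in WT. Of 8 tested, 0 were called and 2 had an unadjusted p under 0.05, Vtn with a log2 difference of 0.75 and Rgs5 with 0.31, and Abcc9 (0.48) was next. The log2 difference of Cspg4 itself was negative. Radial glia and astrocyte markers summed to between 2323 and 2836 TPM in S156A and between 1995 and 2297 TPM in WT. Of 12 tested, Gfap was called higher, and 3 more had an unadjusted p under 0.05 with positive values, Gja1 (0.76) and Nes (0.50) having the smallest, as did 1 with a negative value. Microglia markers summed to between 221 and 255 TPM in S156A and between 67.0 and 124 TPM in WT. Of 8 tested, Cx3cr1, Fcrls and Trem2 were called higher, and 6 had an unadjusted p under 0.05. Of all tested genes 0.159% were called and 13.9% had an unadjusted p under 0.05. Neuron markers summed to between 2654 and 3797 TPM in S156A and between 3782 and 5164 TPM in WT, with Nefl called lower of 8 and Syp (-0.84) and Rbfox3 (-0.37) next. Of these 8, 7 had negative values, and 5 were lower at an unadjusted p under 0.05, against 5.5% of all tested genes. With any 1 library other than WT replicate 3 left out, at most 2 of all tested genes were called by limma, and 0 without both muscle-rich libraries. The part of these marker differences in the values of the 9 genes was not tested.

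Other markers of the precursor stage also had both signs. Of 15 listed, 13 were tested, 6 with positive and 7 with negative values and a median log2 difference of -0.11. Gpr17, a receptor of precursors about to differentiate, was the 1 called gene (log2 difference 1.28, SE 0.15; limma adjusted p = 0.046). It stood at 29.5, 34.8 and 31.1 TPM in S156A and at 13.9, 13.3 and 10.6 TPM in WT. With 1 library left out, this list had a called gene only when that was WT replicate 3, and without both muscle-rich libraries it had 0. It also had 0 with quantile normalization, without trend, without a filter and with the Y-linked covariate. Vcan, a matrix proteoglycan, differed by 0.48 on the log2 scale (limma adjusted p = 0.22) and Cspg5, a membrane proteoglycan, by -0.48 (limma adjusted p = 0.30).

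Genes of the next stages were mostly positive. Of 13 tested oligodendrocyte and myelin genes 12 had positive values, against 61.7% of all tested genes. The median log2 difference of the 13 was 0.92, and 0 were called. At an unadjusted p under 0.05 there were 9 positive and 1 negative, against 8.41% and 5.5% of all tested genes. Bcas1, a marker of newly forming oligodendrocytes, stood at 8.68, 16.8 and 18.0 TPM in S156A and at 1.45, 1.24 and 2.41 TPM in WT (log2 difference 2.48; limma adjusted p = 0.053). On the assembled locus Bcas1 passed with a log2 difference of 2.14 (limma adjusted p = 0.027), and on coverage it passed with 1.06 (limma adjusted p = 0.045). Enpp6, another marker of that step, had a log2 difference of 1.56 (limma adjusted p = 0.078), and of 0.46 on coverage (limma adjusted p = 0.068). Because 1 was added to coverage as to TPM and coverage values are smaller, log2 differences on coverage are shrunk more. In this list 1 gene was called with FPKM, scaling by trimmed means, a pseudocount of 0.1, a mean TPM of at least 5, mitochondrial, haemoglobin and ribosomal RNA genes left out, or WT replicate 3 left out. There were 2 with robust eBayes, and 6 higher and 1 lower with library weights. Without both muscle-rich libraries the counts at an unadjusted p under 0.05 were again 9 and 1.

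Later genes were also set against Pdgfra within each library, measured on the assembled locus because the annotated row of Pdgfra was uneven. The log2 ratio of Gpr17 to Pdgfra (TPM + 1 of each) was -0.50, 0.22 and 0.28 in S156A replicates 1 to 3, and -0.99, -1.11 and -1.81 in WT replicates 1 to 3. All S156A values were above all WT values, with a difference of 1.30 (exact permutation test, two-sided, p = 0.1, the smallest possible). The log2 ratio of Mbp, the myelin basic protein gene, to Pdgfra was 0.81, 1.93 and 2.59 in S156A and 0.55, 0.08 and -0.38 in WT. The groups again did not overlap, with a difference of 1.69 (exact permutation test, two-sided, p = 0.1). With the annotated rows the 2 differences were 1.84 and 2.16, and all p-values were also 0.1 after adjustment over the 3 ratios. On coverage per aligned gigabase the differences were 1.18 and 0.87, and the Mbp to Pdgfra ratio overlapped (exact permutation test, two-sided, p = 0.2). Coverage values are smaller than TPM, so the added 1 shrinks log2 differences on coverage more. Their sizes cannot be compared with those on TPM. On assembled loci the log2 difference was -0.03 for Pdgfra, 1.27 for Gpr17 and 1.66 for Mbp. The ratios on that measure thus largely repeat the differences of Gpr17 and Mbp and are not separate findings.

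**Figure D5:**
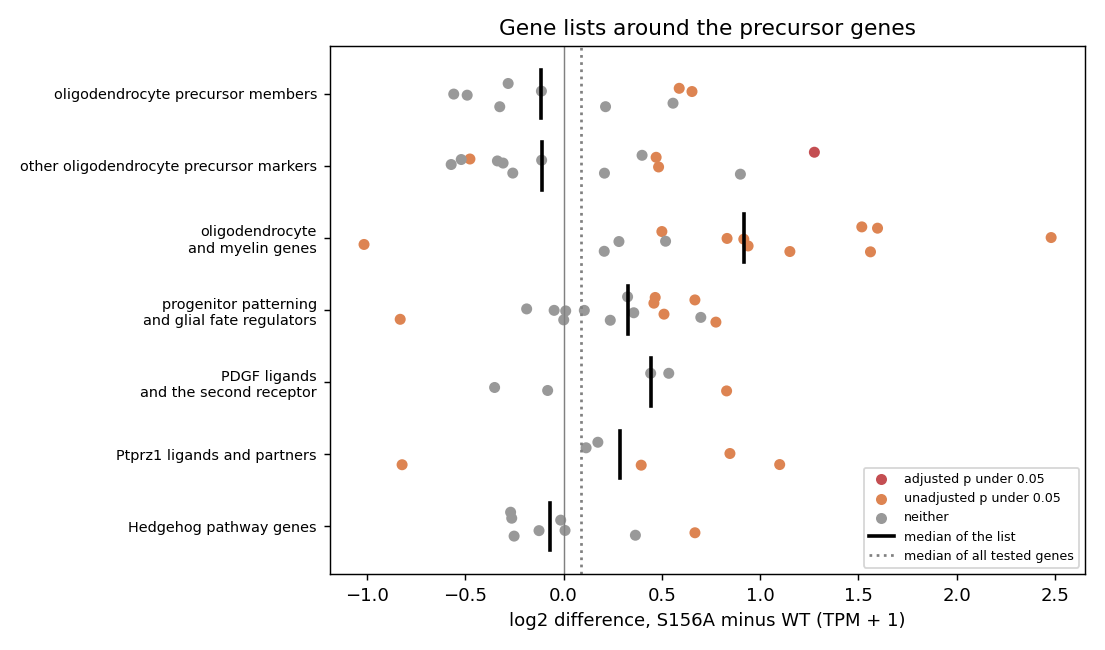
Log2 difference, S156A minus WT, of each tested gene (points) in the precursor genes and 6 related lists, with list medians (bars) and the median of all tested genes (dotted line). The precursor genes and the other precursor markers spread on both sides of 0 with medians of -0.11 and -0.11, and the oligodendrocyte and myelin genes have a median of 0.92.

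Regulators of progenitors and glial fate were mostly positive, at 12 of 15 genes, against 61.7% of all tested genes. Their median log2 difference was 0.33, and 0 were called. At an unadjusted p under 0.05 there were 5 positive genes and 1 negative, against 8.41% and 5.5% of all tested genes. Zeb2, which promotes myelination, and Nfib, a factor of the gliogenic switch, had log2 differences of 0.67 and 0.51 (limma adjusted p = 0.23 and 0.26).

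Of the 5 genes of PDGF ligands and the second receptor, 0 were called. Pdgfa, which encodes the main ligand of Pdgfra, stood at 37.5, 29.9 and 28.8 TPM in S156A and at 36.3, 40.3 and 46.8 TPM in WT (log2 difference -0.35; limma adjusted p = 0.37), and its groups overlapped. Pdgfd, a ligand of the second receptor, had a log2 difference of 0.83 (limma adjusted p = 0.27), but 0.39 on the assembled locus (limma adjusted p = 0.65). It was also 0.39 on coverage, where the added 1 weighs more (limma adjusted p = 0.27). Pdgfrb, that receptor, had one of 0.44 (limma adjusted p = 0.41).

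Of the 6 Ptprz1 ligands and partners 0 were called. At an unadjusted p under 0.05 there were 3 positive and 1 negative, against 8.41% and 5.5% of all tested genes. On assembled loci and on coverage there were 2 positive and 1 negative, against 13.7% and 16.6% of all tested genes in either direction. Cntn1, a neuronal contactin that binds Ptprz1, stood at 38.7, 58.1 and 51.8 TPM in S156A and at 93.1, 95.9 and 73.9 TPM in WT (log2 difference -0.82; limma adjusted p = 0.13). The matrix protein gene Tnc had a log2 difference of 0.39 (limma adjusted p = 0.22). Mdk, a growth factor that binds Ptprz1, had one of 1.10 (limma adjusted p = 0.25), with 299 and 169 TPM in muscle-rich S156A replicate 1 and WT replicate 3 and overlapping groups.

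Among 8 Hedgehog pathway genes, which pattern the ventral progenitors of the lineage, 0 were called and the median log2 difference was -0.07. Smo, the signalling receptor, had a log2 difference of 0.67 (limma adjusted p = 0.24), Boc, a co-receptor, one of 0.37, and the ligand gene Shh one of -0.27. Smo was the 1 gene of this list with an unadjusted p under 0.05, against 13.9% of all tested genes.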

How the data were processed

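RNA sequencing of 6 libraries (3 S156A, 3 WT) was used, with groups and replicate numbers from the sample titles. The deposited tables hold TPM (a signal here, since annotated and assembled rows repeat reads), FPKM and read coverage, per the file headers. Per the submitters' processing notes, tools included StringTie 2.1.5, HISAT2 2.2.1 and Trim Galore 0.6.6. The notes give build hg38, but rows carry mouse identifiers. Since 8 of 9 genes start over 1000 bases from their GRCm38 position, coordinates are given as in the files, with no build stated. The sources used here give no strand setting, annotation release or filter. The tables hold no read counts, so no counting intervals are given. Depth is the commonest ratio of coverage to FPKM, held by 12.0% to 12.9% of rows with an FPKM above 10.

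Rows sharing a gene identifier were summed. log2(TPM + 1) was fitted over 18893 genes (mean TPM 1 or more) with limma 3.58.1 (R 4.3.3; eBayes with trend, two-sided, Benjamini-Hochberg over all genes, called under 0.05) and checked on simulated data. Labels do not say that replicates came from separate litters. An assembled locus was the same-strand assembled row with the largest overlap, covering at least 0.5 of the gene's span. Ratios were tested by exact permutation. From each list, called genes and up to 3 with the smallest p were named, and for Pdgfra the 5 genes with the most similar profile. Mbp, Col1a1, Cdh19, Opalin, Mobp, Mog and Mag were named outside that rule. Alternatives changed the unit, pseudocount, filter, scaling, variance model, covariates and libraries used, and the assembled locus and coverage measures were chosen after seeing the data. A few genes falling under this rule are not reported here. Genes and lists were chosen with earlier results of these data known.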

Additional observations from a re-analysis of the deposited data

How the results depend on the processing

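Of the 198 values of single precursor genes under 22 alternative settings, 195 kept their sign and 0 were called. The 3 that turned were all of Ptprz1, at 0.052 with the Y-linked covariate, 0.058 without S156A replicate 1 and 0.01 without WT replicate 2, and its lowest value was -0.33 without S156A replicate 2. Limma adjusted p over the alternatives ran from 0.059 to 0.47 for Sox8, from 0.099 to 0.67 for Sox10, from 0.18 to 0.92 for Nkx2-2 and from 0.23 to 0.83 for Lhfpl3. The log2 difference of Pdgfra ran from -0.96 to -0.01, being -0.96 without S156A replicate 1 and -0.01 without S156A replicate 3, and that of Cspg4 from -0.58 without S156A replicate 1 to -0.14 without S156A replicate 3. That of Lhfpl3 was -0.33 without S156A replicate 1. The number of precursor genes called was 0 throughout. Their median log2 difference was -0.23 with library weights and 0.052 with the Y-linked covariate, and ran from -0.26 to 0.058 with 1 library left out, above 0 without S156A replicate 1 or WT replicate 2. The number of all genes called, 30 as reported, was 2 without a filter, 52 with quantile normalization (16 higher, 36 lower), 16 without trend, 309 with library weights, 47 on assembled loci, 64 on coverage, 1 with the Y-linked covariate and 0 without both muscle-rich libraries (3141 at an unadjusted p under 0.05), and ran from 0 to 70 with 1 library left out, the 70 being without WT replicate 3 and the others at most 2. The ratios, run on annotated rows except in the assembled locus alternative, kept their sign in all 12 alternatives each, from 1.18 to 2.28 for Gpr17 to Pdgfra, from 0.87 to 2.81 for Mbp to Pdgfra and from -0.64 to -0.42 for Olig1 to Olig2, with exact p from 0.1 to 0.33. The smallest possible p rises as libraries are left out. The exact p of 0.33 came without both muscle-rich libraries and is the smallest that 2 against 2 libraries can give. Same-numbered libraries did not pair (correlations of deviations -0.55, 0.20 and -0.41). With the replicate number as a block, limma called 0 genes, and 1880 had an unadjusted p under 0.05, and the precursor genes' median stayed at -0.11. The causes of these shifts were not tested. Without read counts, the precision of low values cannot be given.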

Other observations

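Of 10 genes related to the 9 by family, 9 were analysed and 7 were tested, of which limma called 0 and 1, Bhlhe22, had an unadjusted p under 0.05. Bhlhe22, a basic helix-loop-helix relative of the Olig genes used in cortical neurons, had 99.98, 135 and 123 TPM in S156A and 65.8, 76.5 and 69.2 TPM in WT. Its log2 difference was 0.74 (SE 0.14; limma adjusted p = 0.094), and the groups did not overlap, as for 20.8% of all tested genes. Lhfpl4, a tetraspan relative of Lhfpl3 found at inhibitory synapses, differed by -0.35 on the log2 scale (limma adjusted p = 0.37). Lhfpl2 stood at 24.5, 28.0 and 25.1 TPM in S156A and at 13.8, 19.6 and 1.59 TPM in WT. Its log2 difference of 1.54 (SE 0.70) was 0.40 on the assembled locus, so that, like Pdgfra, it depended on the row used.

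Tested genes were ranked by likeness of their annotated rows to that of Pdgfra over the 6 libraries, by Pearson's r of log2(TPM + 1). Leaving out the precursor genes and names that are only identifiers, the top 5 were Igdcc4 (0.998), Akr1c19 (0.995), Ago2 (0.994), Catsperz (0.986) and Rpl34 (0.983). All 5 had their lowest value in S156A replicate 3, the library in which the annotated row of Pdgfra stood at 38.2% of the TPM of its locus. On assembled loci the same r were 0.855, 0.804, 0.761, 0.925 and 0.052. These r are descriptions over 6 libraries of a gene chosen beforehand, and 100 genes had an r above 0.9.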
